A study of Glycine max with 18 samples.

Results

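The last step of soybean seed development was examined by comparing mature dry seed with the late maturation embryo that precedes it, across every gene identifier measured. The comparison rests on 6 of the 18 libraries of the series, 3 biological replicates of each stage, and on all 51546 identifiers. Both groups were of the cultivar Williams 82, from plants raised in a greenhouse, and carried no further treatment in the labels. Late maturation embryos were dissected from seeds of 230 to 500 mg in which coat and embryo were wholly yellow. The dry seed group consisted of mature, dry seeds, which the labels give as seed rather than embryo. Whether the coat was removed from them is not stated, so drying and a change of tissue cannot be told apart. The other 12 libraries (cotyledon, early and mid maturation embryos, and seedlings taken 8 days after sowing) contributed to the estimate of the spread between replicates. They also served to describe how genes behaved outside this step.

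Soybean makes orthodox seed, which survives the loss of most of its water. During filling the embryo builds up storage protein and oil. Filling then gives way to a late phase in which abscisic acid signalling, late embryogenesis abundant proteins and small heat shock proteins are typical, and metabolism slows as water leaves. The dry seed keeps a pool of stored messenger RNA, part of which is translated when water is taken up again.

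Neither the deposited files nor the gene table used here (Glycine max v4.0, 59048 genes) paired any identifier with a gene name, since 0 of 51546 matched. Genes are therefore described in groups set by their level or by their pattern at other stages, and the embryo and seed labels could not be checked against storage protein, seed coat or other marker genes. Gene models, coordinates and transcript lengths were likewise not used here.

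Values are library-size-scaled read counts (CPM) with a scaling between libraries by trimmed mean of M-values (TMM), as recovered from the deposited signal. The 6 libraries held 3843336 to 6615868 reads on genes, and a CPM of 1 stood for 3.67 to 5.26 reads. Replicates correlated across genes at 0.974 to 0.989 in late maturation and at 0.983 to 0.989 in dry seed, and between the stages the correlation was 0.894 to 0.927. Genes are not independent of one another, so these coefficients describe the libraries only. One library of each stage stood apart. Late maturation replicate 1 correlated at 0.974 with both of its partners, which correlated at 0.989 with each other, and it was closest of the 3 to the mid maturation embryos (r of 0.748 to 0.762, against 0.703 to 0.729). Dry seed replicate 1 correlated at 0.983 and 0.986 with its partners, against 0.989 between these. Results are given with and without these libraries where they changed.

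Between late maturation and dry seed 2891 genes rose and 5337 fell. A gene was called with limma on log2(CPM + 1) when its p, adjusted by Benjamini and Hochberg, was under 0.05 and its log2 difference reached 1 in either direction, in 1 model of all 18 libraries. Of the 36872 genes tested, 7.84% rose and 14.5% fell, 22.3% in all. Of the genes tested, 8306 had a CPM under 1 in each of the 6 libraries, where a log2 difference past 1 cannot be reached on this scale. Among the 28566 others the share called was 28.8%. In a whole seed or embryo, fewer cells of a type and less RNA per cell cannot be told apart, and a CPM gives a share of the sequenced RNA rather than an amount per seed.

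Most called changes were small on the scale of log2(CPM + 1), which understates changes of low genes. Of the rises 2463 and of the falls 4367 lay between 1 and 2 on the log2 scale, with medians over all called genes of 1.36 and -1.44. Over all genes tested the median was -0.10, with quartiles at -0.62 and 0.28. A further 9845 genes passed the adjusted p but not the limit on the difference, 4253 of them higher and 5592 lower in dry seed.

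**Figure D1:**
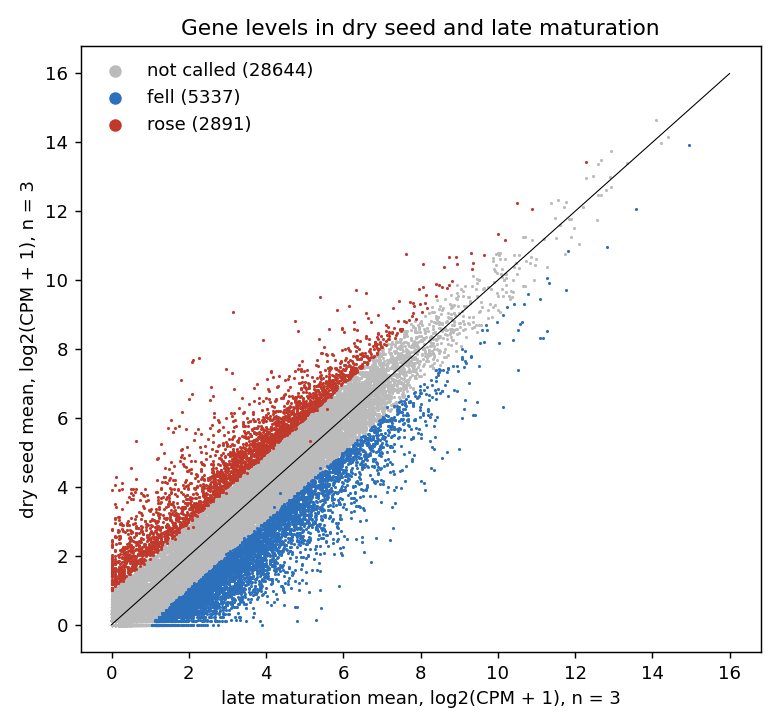
Mean level of each tested gene in late maturation (x axis) and dry seed (y axis), both as log2(CPM + 1) of the mean of 3 libraries, with the line of equal levels. Most of the 28644 genes not called lie along the line, and the 5337 genes that fell outnumber the 2891 that rose mainly at low levels.

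How far losses outnumbered gains was a matter of scaling. The share of rises among calls was 35.1% with the deposited scaling, 46.7% after median-of-ratios rescaling (3810 rose and 4350 fell) and 47.9% after upper-quartile rescaling (4150 and 4514). The median log2 difference of all genes was -0.02 and 0.00 under these scalings. Losses thus outnumbered gains under each scaling, by a margin that these data alone do not fix. Leaving late maturation replicate 1 out gave 2626 rises and 5129 falls, of which 2432 and 4671 were the same genes as with all libraries. Without dry seed replicate 1 the numbers were 2729 and 5231.

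The balance between gain and loss ran with the level of a transcript. Most genes were not called at any level. At 1 to 20 CPM more genes fell than rose, whereas between 20 and 1000 CPM gains were somewhat more frequent than losses. Levels here are mean CPM over the 6 libraries with no correction for transcript length, so they rank reads rather than molecules. Of 7712 genes with a mean of 1 to 5, 26.7% fell and 7.70% rose, and of 8415 genes at 5 to 20, 21.98% fell and 9.83% rose. Among the 7423 genes at 20 to 100 the order was the other way, with 14.8% that rose and 12.9% that fell. The 1644 genes at 100 to 1000 gave 16.4% and 12.6%. Of the 99 most abundant genes, at 1000 or more, 10 rose and 15 fell. Under 1, where 11579 genes lay, 0.803% rose and 2.17% fell, and a log2 difference of 1 is hard to reach on a scale with 1 added to each value.

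The excess of losses at low level was present under each scaling and with each library left out. At 1 to 5, 22.1% fell and 8.92% rose after median-of-ratios rescaling, and 23.4% fell and 9.89% rose after upper-quartile rescaling. The excess of gains at higher level held under each scaling as well, with 20.2% against 10.3% at 20 to 100 after median-of-ratios rescaling. With the deposited scaling, however, it rested on late maturation replicate 1, which was not left out under the other scalings. Without that library 951 genes rose and 981 fell at 20 to 100, and 208 rose and 224 fell at 100 to 1000.

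**Figure D2:**
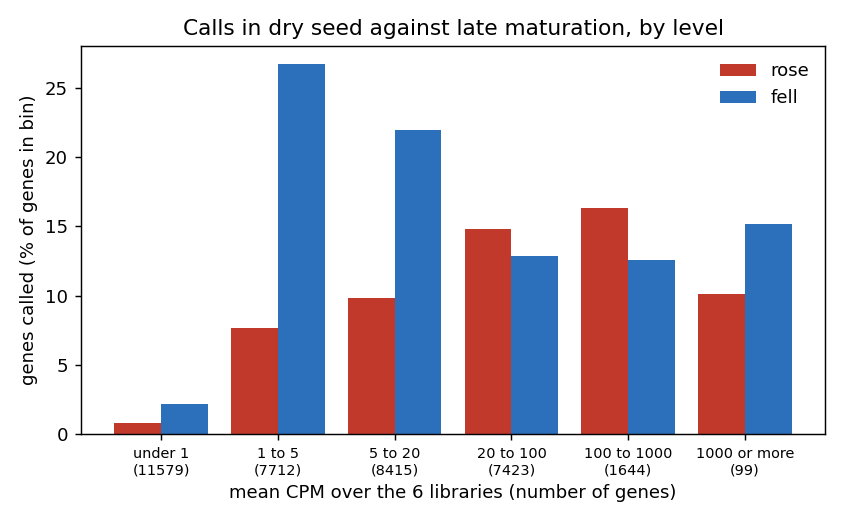
Share of genes called in dry seed against late maturation (y axis, % of the genes in the bin) by mean CPM over the 6 libraries (x axis, with the number of genes). At 1 to 5 CPM 26.7% fell against 7.70% that rose, while at 20 to 100 CPM 14.8% rose against 12.9%, an order that turned without late maturation replicate 1.

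The number of transcripts detected was lower in dry seed. Genes at a CPM of at least 1 numbered 26224, 25002 and 25452 in the late maturation libraries and 24030, 23907 and 23413 in the dry seed libraries. The groups did not overlap, with means of 25559 ± 618 and 23783 ± 327 (SD, n = 3), and the exact two-sided permutation test gave p = 0.1, the smallest p that 3 against 3 allows. With each library thinned to 3843336 reads, the depth of the shallowest, genes with at least 5 reads numbered 23635 to 25220 in late maturation and 22221 to 22651 in dry seed.

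A CPM of at least 1 in every late maturation library and under 1 in every dry seed library was found for 1074 genes, and the reverse for 439. At a CPM of at least 5 in the higher stage the numbers were 51 and 44. No gene had a CPM of at least 10 in all 3 libraries of 1 stage and no read in the 3 libraries of the other. With a CPM of at least 1 in each library of the higher stage, 54 genes were without a read in dry seed and 47 in late maturation. With a CPM of at least 10 in each library of the higher stage and under 1 in each of the lower, 11 genes were lost and 13 gained. Of these 13 genes, 6 had a mean under 1 at all 4 other stages, against 1 of the 11 that went the other way. Genes that low elsewhere entered the test mainly through the stage where they were high, so these counts only describe them. Over all 36872 genes tested, 844 had a CPM of at least 1 in fewer than 3 of the other 12 libraries. Floors for a gene with no read were 0.57 to 0.82 CPM per library (3 reads) and cover counting error only.

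The most abundant genes of dry seed were largely among the most abundant of late maturation as well. Whether the same molecules persisted was not tested. Pool means the summed CPM of a library. The 10 genes highest on average in late maturation held 12.7% of its pool and 10.6% of the dry seed pool, and 6 of them were also among the 10 highest of dry seed. For the 1000 highest genes of late maturation the shares were 53.9% and 49.96%, with 673 shared, and 55 of these 1000 rose while 238 fell. Of the 1000 highest of dry seed 249 rose and 49 fell. Over all genes tested 7.84% rose and 14.5% fell. These lists were taken from the stages compared, so their directions are fixed in part by the choice.

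Concentration of the pool did not differ detectably. The 100 most abundant genes of each library held 30.6%, 32.1% and 30.6% of the late maturation pools and 31.7%, 28.3% and 30.3% of the dry seed pools. The groups overlapped, with a difference of -0.98 percentage points (exact two-sided permutation p = 0.4). At the other end of the pool, the number of genes that made up 90% of it was 8894 to 10012 in late maturation and 8056 to 8640 in dry seed, which did not overlap (exact two-sided permutation p = 0.1).

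The called genes made up a limited part of either pool. Genes that rose held 5.86%, 6.72% and 6.83% of the late maturation pools and 18.7%, 17.9% and 18.05% of the dry seed pools. Genes that fell went from 23.97%, 21.2% and 20.7% to 7.00%, 7.29% and 7.17%. The direction follows from how the genes were chosen, and no test is given. All other genes together held 70.2% to 72.5% of the late maturation pool and 74.3% to 74.9% of the dry seed pool.

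Genes that fell were, as a group, at a moderate level at every stage but the dry seed. Their median CPM over genes was 10.95 for cotyledon-stage embryos, 10.9 for early maturation, 13.8 for mid maturation and 9.88 for late maturation. Dry seed gave 2.45 and seedlings 10.4. The median of all tested genes was 7.42, 7.12, 6.38, 4.69, 3.26 and 7.81 in the same order. A gene can be called as falling only if it was expressed in late maturation, so the higher medians follow in part from the choice. For the 25679 tested genes with a late maturation mean of at least 1 CPM, the medians were 11.8, 11.4, 11.3, 11.3, 9.67 and 10.98. Beside these the genes that fell were higher at mid maturation and not at the cotyledon, early maturation or seedling stages. In 4343 of the 5337 (81.4%) the dry seed mean was at least 1 lower on the log2 scale than the highest mean among the 4 other stages, late maturation left out. This held for 11833 (46.1%) of the 25679. In 1891 of the genes that fell (35.4%) it was at least 3 lower, beside 14.7% of the 25679. Since the genes were chosen for a low dry seed level, these shares describe them and test nothing.

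Genes that rose were, as a group, near the median of all tested genes in embryos up to mid maturation. Their median CPM was 7.25 for cotyledon-stage embryos and 6.48, 5.77 and 8.65 for early, mid and late maturation. Dry seed reached 27.4, and seedlings were at 9.05. For the 23609 tested genes with a dry seed mean of at least 1 CPM the medians were 12.03, 11.6, 11.6, 13.1, 11.7 and 11.6 in stage order, so beside genes expressed in dry seed those that rose were lower at every other stage. For 1411 of the 2891 (48.8%) the dry seed mean was at least 1 higher on the log2 scale than each of the means at the 4 other stages, beside 16.5% of the 23609, a difference that the choice of genes fixes in part. For 420 genes (14.5%) it was at least 1 lower than the highest of these, so that the rise brought them only part of the way to a level seen elsewhere in development.

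**Figure D3:**
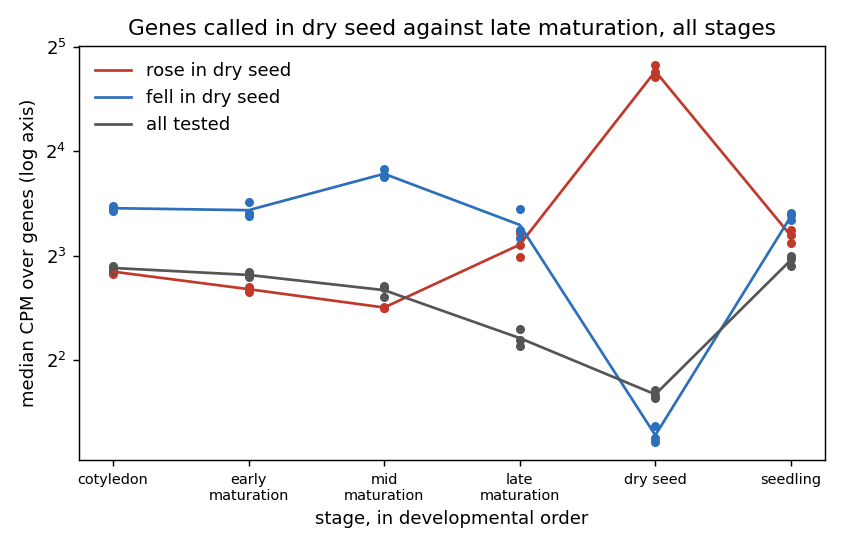
Median CPM over genes (log axis) in each of the 18 libraries (points) and its mean per stage (lines), for the 2891 genes that rose, the 5337 that fell and all 36872 tested. The change between late maturation and dry seed was fixed by the choice of genes, which also favours genes expressed in these stages over all tested genes. At mid maturation the genes that fell had a median of 13.8 CPM and those that rose 5.77.

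Few genes changed by a log2 difference of 3 or more, 88 that rose and 125 that fell. With 1 added to each value, a gene at a low level in late maturation cannot fall by that much. The 88 had a median CPM of 2.56 in late maturation and 48.6 in dry seed. In embryos before that they were scarce, at medians of 1.02, 0.759 and 1.13 at the cotyledon, early and mid maturation stages. In seedlings the median was 3.25, and 31 of the 88 had a seedling mean of at least 10, against 17 at the cotyledon stage, 8 at early and 7 at mid maturation. The 125 went from a median of 42.0 to 3.20 and stood at 24.7 at mid maturation, where 69 of them had their highest mean among the 4 other stages. At the cotyledon stage, early maturation and seedling their medians were 6.39, 6.78 and 8.37.

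Each tested gene was next placed by the stage at which its mean was highest among the 4 stages outside the comparison. The groups were set with the deposited scaling and kept under the other settings. A gene can fall only if it was detected in late maturation, and the groups were not matched for this. Genes highest at mid maturation, when the embryo is filling, lost most. Of 7625 such genes 2084 (27.3%) fell and 401 (5.26%) rose, beside 14.5% and 7.84% over all genes tested, and their median log2 difference was -0.43 beside -0.10. With the other scalings and with each library left out, 22.8% to 28.7% of them fell and 4.67% to 7.62% rose. Of 13293 genes highest in seedlings 1347 (10.1%) fell and 1231 (9.26%) rose, with a median of 0.00. Rises outnumbered falls in this group after median-of-ratios (1569 and 1103) and upper-quartile rescaling (1682 and 1146), with DESeq2 (1877 and 1537), with a pseudocount of 4 (759 and 631), with only genes at a mean of at least 5 (898 and 729) and without late maturation replicate 2 (1381 and 1331). Of 8258 genes highest at the cotyledon stage 946 (11.5%) fell and 751 (9.09%) rose, and rises again outnumbered falls after median-of-ratios (997 and 750) and upper-quartile rescaling (1082 and 804), with DESeq2 (1193 and 1161), with a pseudocount of 4 (469 and 328) and at a mean of at least 5 (596 and 410). The direction of the balance in these 2 groups is therefore not settled. Of 7689 early maturation genes 957 (12.4%) fell and 508 (6.61%) rose, and the numbers were close to equal after median-of-ratios (758 and 707) and upper-quartile rescaling (800 and 788).

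Within 1 library, the share of the pool held by a given gene list does not depend on the scaling between libraries. The placing of genes by stage does, and it was made with the deposited scaling only. Summed CPM was 1542222 to 1603763 in the mid maturation libraries and 718776 to 751551 in the seedling libraries. Genes highest at mid maturation held 56.1%, 55.99% and 54.7% of the late maturation pools and 49.3%, 46.9% and 48.2% of the dry seed pools, without overlap. The means were 55.6% ± 0.791 and 48.1% ± 1.21 (SD, n = 3). With genes placed in this way, those highest at mid maturation remained the largest group of the dry seed pool. Genes highest in seedlings went from 19.3%, 21.1% and 21.4% to 25.2%, 24.9% and 24.3%, also without overlap. Cotyledon-stage genes held 10.02% to 10.7% in late maturation and 12.02% to 13.1% in dry seed, and the groups were again separate. Early maturation genes overlapped, at 12.8% to 13.7% and 13.4% to 15.1%. The exact two-sided permutation test gave p = 0.1 for the 3 groups without overlap, the smallest possible, and p = 0.2 for early maturation genes. After Benjamini-Hochberg adjustment over the 8 groups examined (these 4 and the 4 that follow), the exact permutation p was 0.16 and 0.229. The 4 shares add up to nearly all of each pool, so a lower share in any group forces higher shares elsewhere. The 8 groups also have genes in common, so these tests are not separate results.

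**Figure D4:**
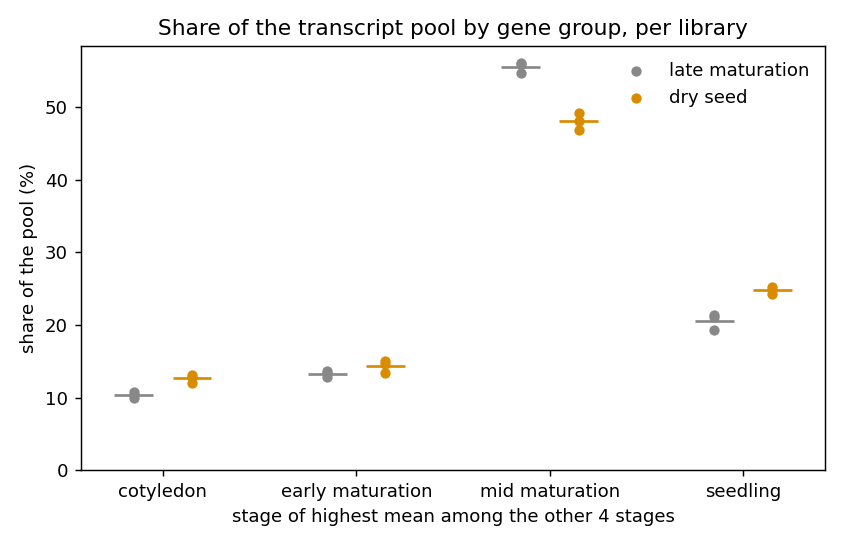
Share of the summed CPM of each library (y axis, %) held by genes grouped by the stage of their highest mean among the 4 stages outside the comparison (x axis). Points are libraries and bars are means of 3, with the mid maturation group at 54.7% to 56.1% in late maturation and 46.9% to 49.3% in dry seed.

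The transcripts that dominate filling were followed through the 100 genes with the highest mean at each of those 4 stages, which were chosen on other libraries than the ones compared. From the mid maturation list 37 fell and 1 rose, beside 14.5% and 7.84% over all genes tested. The 37 became 25 in the fit to the 6 libraries alone and 33 without late maturation replicate 1. The median of the log2 differences of the list was -0.71, beside -0.10 for all genes. The 100 genes held 19.1%, 16.2% and 15.2% of the late maturation pools and 12.96%, 13.3% and 14.2% of the dry seed pools. The 1 became 2 without late maturation replicate 2 or dry seed replicate 3, 2 after median-of-ratios rescaling, and 3 after upper-quartile rescaling or with DESeq2. Thus 62 of the 100 did not pass the test, and the group still held 13.5% ± 0.622 of the dry seed pool (SD, n = 3). Of the 100 from early maturation 34 fell and 3 rose (5 after upper-quartile rescaling), again beside 14.5% and 7.84%. The 34 became 24 in the fit to the 6 libraries alone and 27 without late maturation replicate 1. The share of these 100 went from 14.7%, 11.01% and 10.3% to 7.51%, 9.60% and 10.07%. The 14.7% belongs to late maturation replicate 1. Both of these groups were without overlap between the stages (exact two-sided permutation p = 0.1, and 0.16 after adjustment over the 8 groups).

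The 100 highest genes of the cotyledon stage and of the seedling held small shares of both pools. Of the cotyledon group 31 fell and 4 rose, beside 14.5% and 7.84% over all genes. In the fit to the 6 libraries alone 20 fell, and without late maturation replicate 1 24 fell and 2 rose. The share of the cotyledon group was 3.42% to 3.81% in late maturation and 3.17% to 3.89% in dry seed. Of the seedling group 18 fell (11 with a pseudocount of 4) and 7 rose, and its share was 3.19% to 3.49% and 3.47% to 4.10%. The libraries of both stages overlapped in each group (exact two-sided permutation p = 0.8 and 0.2, where the design allows no p under 0.1), which does not show that the shares were equal. All 4 groups consist of abundant genes, and 15 of the 99 genes at 1000 CPM or more fell by the same test.

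The share of genes that fell ran with the balance between mid maturation and seedling levels. On the scale of log2(CPM + 1), 402 genes had a mid maturation mean at least 4 above the seedling mean, and 138 (34.3%) of them fell while 13 (3.23%) rose. In the next band, 2 to 4 above, 421 of 1407 (29.9%) fell, and at 1 to 2 above 1132 of 4705 (24.1%). Where the means lay within 1 of each other, 2769 of 19997 (13.8%) fell and 1737 (8.69%) rose. This was near the shares over all genes tested, of which 14.5% fell and 7.84% rose. Among 1149 genes with a seedling mean at least 4 above that of mid maturation, 95 (8.27%) fell and 119 (10.4%) rose. In the bands between, with the seedling mean 1 to 2 and 2 to 4 above, 8.85% of 4981 and 8.06% of 4231 fell. The share that fell was thus higher the more a gene favoured mid maturation, and it differed little among the 3 bands that favoured the seedling, where the median difference was 0.00. The bands were not limited to genes detected in late maturation, which alone can fall. How far the trend follows from detection was not tested.

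Individual genes are shown by the size of their gain or loss in mean CPM, ranked among eligible genes only. Genes that were not called or that overlapped were not ranked and may have changed more in CPM. Eligible genes were called, averaged 50 CPM or more at their higher stage and had no overlap between the stages, which left 961 that rose and 748 that fell. The call and the lack of overlap were thus fixed by the choice for each gene described below. No role is given for these identifiers, since no source used here annotates them. Soybean has many near-identical gene pairs, and reads that match both copies make the value of a single one uncertain.

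Of the eligible genes, Glyma.19G147200 gained the most. It stood at 3645, 5925 and 5503 CPM in the late maturation libraries and at 12924, 9140.4 and 10983 in the dry seed libraries. Every dry seed library was above every late maturation library, and late maturation replicate 1 was the lowest. The log2 difference was 1.15 (SE 0.255, limma adjusted p = 6.94e-04), but 0.93 and therefore not called without late maturation replicate 1 (limma adjusted p = 0.00539). Outside this step its mean went from 4.76 ± 2.84 CPM in cotyledon-stage embryos (SD, n = 3) through 25.2 ± 4.39 and 244 ± 63.8 in early and mid maturation, and it was 20.1 ± 3.04 in seedlings.

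Glyma.15G152000 had the next largest gain. Its late maturation values were 979.8, 1732 and 1654 CPM, its dry seed values 4790.4, 4501 and 5080. Here too replicate 1 was the lowest late maturation library, while the dry seed libraries lay close together. The log2 difference was 1.76 (SE 0.154, limma adjusted p = 6.45e-09), and between 1.498 and 1.91 with a library left out. At the 4 other stages its mean was 37.1 to 85.9 CPM.

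Among the eligible genes that fell, Glyma.15G026300 lost the most CPM. It measured 31240, 35569 and 28695 CPM in late maturation and 12696, 17258 and 17063 in dry seed, the groups not overlapping. The log2 difference of -1.03 (SE 0.252, limma adjusted p = 0.00166) was only just past the limit of 1. The gene was not called after median-of-ratios rescaling (-0.85) or upper-quartile rescaling (-0.81), by DESeq2 (-0.84), or without late maturation replicate 2 (-0.95) or dry seed replicate 1 (-0.89). It peaked at mid maturation, at 65213 ± 3379 CPM (SD, n = 3), and was at 23.7 ± 5.75 at the cotyledon stage and 28.8 ± 13.6 in seedlings.

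Glyma.06G283900 lost the next most, from 7492, 16688 and 12569 CPM to 5512, 2996 and 4327. The lowest late maturation library, again replicate 1, was above the highest dry seed library. The log2 difference was -1.49 (SE 0.288, limma adjusted p = 1.80e-04), and between -1.80 and -1.23 with a library left out. Its means at the 4 other stages were 4.22 to 14.7 CPM, against 12250 in late maturation and 4278 in dry seed. When limma was fitted to the 6 libraries alone, Glyma.15G152000 was called (limma adjusted p = 0.0193). Glyma.19G147200, Glyma.15G026300 and Glyma.06G283900 were not (limma adjusted p = 0.3798, 0.859 and 0.257), at the same log2 differences and larger standard errors. In limma a standard error is drawn towards a trend over genes of like level, so it does not measure the spread of a gene's own replicates alone.

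**Figure D5:**
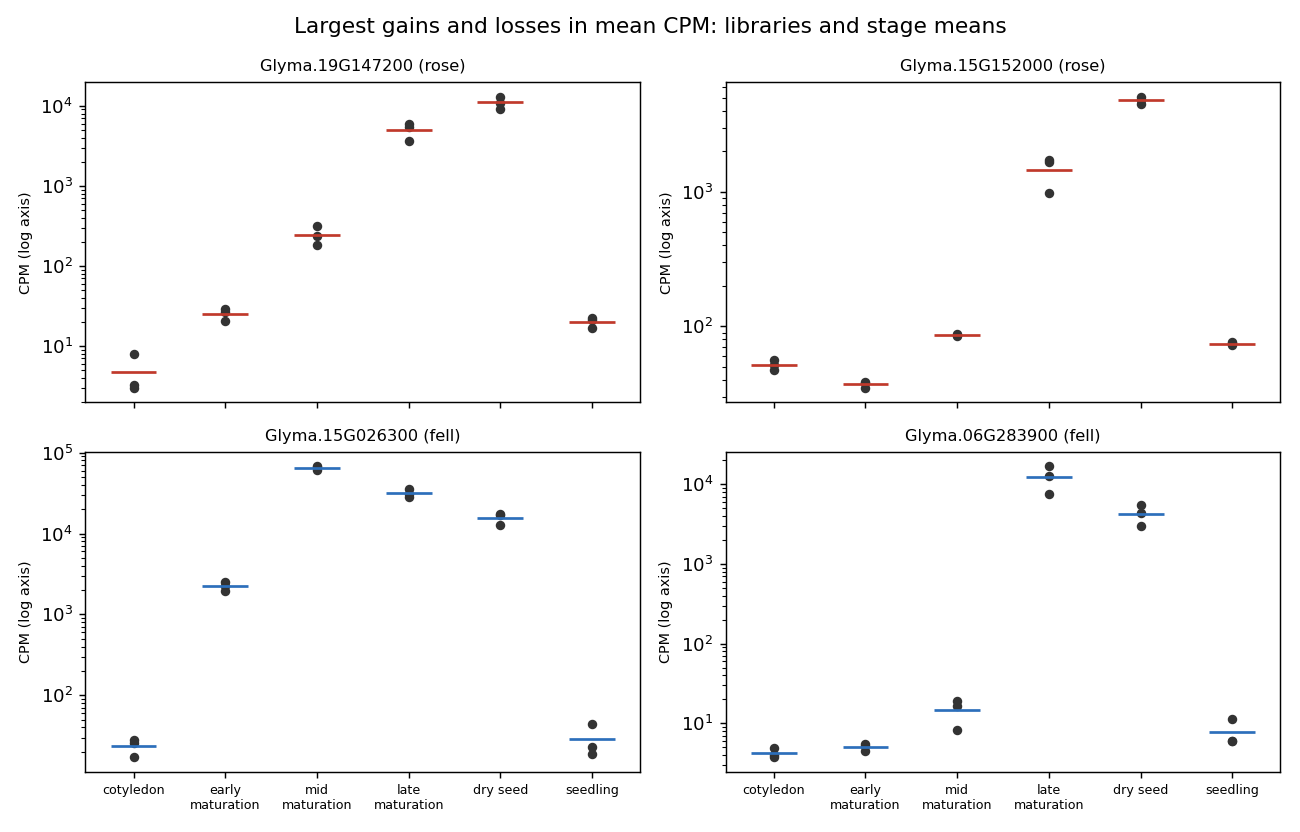
CPM (log axis) of the 2 eligible genes with the largest gain and the 2 with the largest loss in mean CPM. Eligible genes were called, without overlap between the stages, and averaged 50 CPM or more at their higher stage. Points are the 18 libraries and bars are stage means, with stages in developmental order. Both genes that rose are highest in dry seed, at 11016 and 4791 CPM, whereas the genes that fell were highest at mid maturation (65213 CPM) and at late maturation (12250 CPM).

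The libraries that stood apart carried the change to unequal degrees. Late maturation replicate 1 was the farthest of its stage from dry seed in 2897 of the 5337 genes that fell (54.3%), against 30.02% and 15.7% for the others. For the genes that rose it was the farthest in 53.9%, against 14.8% and 26.05%. On the dry seed side, replicate 1 was the farthest from late maturation in 46.7% of rises and in 39.5% of falls, the others in 20.2% to 33.1%. These shares cover called genes only, and a library that stands apart helps to make the calls. Across all genes tested, late maturation replicate 1 correlated with the dry seed libraries at 0.894 to 0.903, against 0.918 to 0.927 for the others. The 3 late maturation libraries thus did not lie equally close to dry seed. Among called genes, the replicate nearest to mid maturation was the farthest from dry seed more often than either of the others.

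By the 20 chromosome prefixes of the identifiers, 6.97% to 8.98% of tested genes rose and 12.95% to 15.9% fell, near the 7.84% and 14.5% over all genes. Neighbours in the order of the identifiers were alike somewhat more often. After a gene that rose, the next tested identifier also rose in 14.1% of cases (408 of 2889), beside 7.84% over all, and after a gene that fell the next one fell in 17.1% (910 of 5332), beside 14.5%. The next identifier was called in the opposite direction in 10.6% and 6.10% of cases. Runs of 4 or more neighbours with the same call numbered 10 for genes that rose and 25 for genes that fell, the longest of 6 genes in each case. Adjacent genes may be copies that share reads, and how many neighbours are such copies was not tested.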

How the data were processed

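Each file held, per the file headers, 1 column for 1 library. The submitters' processing notes name Bowtie 0.12.7 and edgeR 3.0.8. No source used here gives the genome build, annotation or counting, so these are not stated. The deposited signal values were whole multiples of 1 step per library. Dividing by it returned whole reads, to within 0.05 of a read, in 927825 of 927828 cases, and the implied scaling matched recomputed TMM factors, so values are called CPM with TMM scaling.

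limma 3.58.1 (R 4.3.3) was run on log2(CPM + 1), two-sided, with a mean-variance trend, on 36872 genes with a CPM of at least 1 in at least 3 of 18 libraries. A log2 difference on this scale understates changes of low genes. The procedure was tested on simulated counts. Single values per library were compared by exact permutation tests. Alternatives covered pseudocount, filter, scaling, limit, trend, libraries, the replicate number as a block, edgeR 4.0.16 and DESeq2 1.42.0 on recovered reads. edgeR called 3624 genes higher and 7251 lower. Gene groups, rules and tests were chosen with earlier results of these data known. Individual genes were taken by a rule, the 2 largest gains and 2 largest losses in mean CPM among called genes without overlap that averaged 50 CPM or more at their higher stage. Gene lists by function were planned and could not be matched. Replicates are biological per the labels, and what they share is not stated.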

Additional observations from a re-analysis of the deposited data

How the results depend on the processing

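Of 400 counts of called genes (all genes and 9 groups, each direction) under 20 settings, 325 stayed within 1.5 times the reported count. Some of these settings could hardly move the counts. Dropping the trend or adding the replicate block leaves the log2 differences as they are. Without the filter the group counts were unchanged, since the groups were set among tested genes. The 325 thus include settings that tested little. In the order higher and lower, over all genes and then for genes highest at the cotyledon stage, early maturation, mid maturation and seedling, a pseudocount of 4 gave 1780 and 2551, 469 and 328, 297 and 348, 255 and 1244, and 759 and 631. With no limit on the difference the counts were 7144 and 10929, 1825 and 2163, 1576 and 2282, 1083 and 3699, and 2659 and 2781. With a limit of 2 they were 428 and 970, 102 and 125, 45 and 113, 58 and 486, and 223 and 246. Only genes with a mean of at least 5 gave 3030 lower over all, and 410, 476 and 729 lower for the cotyledon, early maturation and seedling groups. Upper-quartile rescaling gave 788 higher for early maturation genes. edgeR gave 1478 lower for cotyledon genes, and DESeq2 gave 4562 higher over all and 1193, 892 and 1877 higher for the cotyledon, early maturation and seedling groups. Pseudocount, limit and filter act by their construction, and the cause of the others was not tested. Leaving out each library gave 2626 to 3230 higher and 5129 to 5627 lower. Genes detected fell by 1630 at a CPM of at least 0.5, fell by 1665 at 5 and fell by 1999 after thinning, which was added after seeing the data (exact permutation p = 0.1 each). In the fit to the 6 libraries alone, which called 2705 higher and 4809 lower, 3 of the 4 named genes were not called, as the standard error of Glyma.15G026300 was 3.11 (limma adjusted p = 0.859), that of Glyma.19G147200 0.881 and that of Glyma.06G283900 0.885. Those standard errors include the mean-variance trend and are not the spread of the replicates alone. Deviations from the stage mean correlated at -0.15, -0.10 and -0.04 between same-numbered libraries, and at -0.06 to 0.14 between differently numbered ones. With 3 libraries per stage, each set against its own stage mean, these values cannot decide whether replicate numbers pair the libraries. With the replicate block 2892 genes were higher and 5340 lower. Overlaps with comparisons of other stages were planned and not run.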
